A study of Rattus norvegicus with 20 samples.

Results

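The livers of rats given the highest dose of tricresyl phosphate, an organophosphate triester known as a plasticizer, flame retardant and oil additive, were compared with livers of rats given only the vehicle. The dosed group held 3 male Harlan Sprague-Dawley rats that received 994.6 mg/kg (2.7 mmol/kg) in corn oil by oral gavage on each of 4 days. The control group held 5 males of the same strain, gavaged with corn oil alone on the same schedule. Members were chosen by their titles, which gave 8 of the 20 arrays of the study, 1 array per rat, and the other 12 arrays came from 4 lower doses. Livers were taken on day 5, and the sources used here do not give the age of the rats. The RNA came from pieces of the left lobe, so each value averages over all cell types of the tissue.

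A hepatocyte detects many foreign chemicals through the nuclear receptors CAR and PXR, which switch on cytochrome P450 enzymes of the Cyp2b and Cyp3a families, conjugating enzymes and export pumps. A second system, run by the transcription factor NRF2, answers electrophiles and oxidants with glutathione transferases, quinone reductase and heme oxygenase. The liver also turns cholesterol into bile acids, moves sterols into bile through the ABCG5 and ABCG8 pump, and runs much of its metabolism under a circadian clock. Organophosphates are best known for binding serine esterases as proteins, and the arrays measured transcripts only.

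All values are log2 expression values, in which a difference of 1 is a doubling, and every adjusted p is limma's, by the Benjamini-Hochberg method over all 31042 probe sets, with a call at an adjusted p under 0.05. The error after ± is limma's standard error unless it is named as an SD. Of these probe sets 807 were called (2.60%), 422 higher (1.36%) and 385 lower (1.24%) at 994.6 mg/kg. Counted once per gene, by the probe set with the highest mean, 508 of 14217 genes were called (3.57%), 276 higher (1.94%) and 232 lower (1.63%). In 490 of the called genes the 3 dosed arrays lay beyond all 5 control arrays, which held for 14.0% of all genes (6.91% above and 7.12% below). Genes named for having the largest called changes were picked among these 490, so lack of overlap is no separate result for them. At least 2-fold changes were called for 86 genes, 56 higher and 30 lower. With all arrays 2662 of the 14217 genes had an unadjusted p under 0.05, and such counts in the lists below are read against that. The matching count over all genes without replicate 1 is not given here. The count of genes was 318 without control replicate 1 and 305 without control replicate 5.

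Replicate 1 of the dose stood apart from all other arrays. It lay at 37.1 on the first principal component of the 20 arrays, while replicates 2 and 3 lay at 6.83 and 0.352 and the control arrays at -14.1 to -2.6. In replicate 1, 253 genes lay more than 1 above the control mean and 116 more than 1 below it, against 62 and 41 in replicate 2 and 64 and 64 in replicate 3. Each control array set against the mean of the other 4 had 14 to 47 such genes in all. Without replicate 1, 216 probe sets were called (0.696%, with 0.377% higher and 0.319% lower). Counted by gene there were 143 (1.01%, with 0.591% higher and 0.415% lower), 131 of them also called with it and in the same direction. List counts without replicate 1 are read against this 1.01%. Of the 377 genes called with replicate 1 only, it was the dosed array farthest from the control mean for 304, and it was so for 71 of the 131 genes called both ways. The count of 304 in part follows from how those genes were picked, by losing their call without replicate 1.

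**Figure D1:**
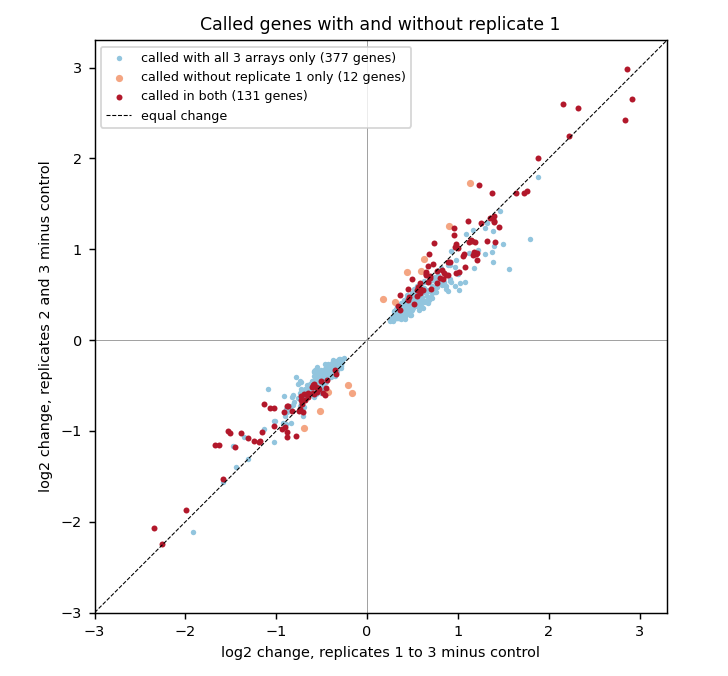
Log2 change from control of every gene called with all 3 dosed arrays (x axis) or without replicate 1 (y axis), 1 point per gene, coloured by the fits that called it; the dashed line marks equal change. Replicates 2 and 3 and the control arrays enter both axes. The 131 genes called in both fits reach from Abcg5 at the lower left to Ces2c at the upper right. The 377 called with replicate 1 only lie mostly nearer to 0 on the y axis than on the x axis, which in part follows from how they were picked.

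RNA quality differed with the group. The excess of the 3' over the 5' probe set of the GAPDH control transcript, which grows as RNA is shortened, was 0.61, 0.84 and 0.71 at 994.6 mg/kg, against 1.13 to 1.56 in the control arrays, a difference of -0.65 (exact two-sided permutation p = 0.0357, adjusted over this and beta-actin 0.0357). That of beta-actin averaged 1.99 ± 0.07 (SD, n = 3) at 994.6 mg/kg and 2.5 ± 0.25 (SD, n = 5) in control, with the same exact p. The low GAPDH values were not particular to 994.6 mg/kg. They were 0.71, 0.9 and 0.84 at 497.3 mg/kg, 0.86 to 1.1 at 248.6 mg/kg, 0.76, 2.58 and 0.77 at 124.5 mg/kg and 0.87 to 1.11 at 62.3 mg/kg. With the GAPDH difference as a covariate over all 20 arrays 314 genes were called, 243 higher and 71 lower, 234 of them among the 508, and the widest value behind that fit was 2.58 in a liver of 124.5 mg/kg. Of the 101 called genes named by rule 39 lost their call with it, among them Cyp3a23-3a1, Ddit4 and Cdkn1a. The 10 measured hepatocyte markers, among them albumin, were at a mean log2 level of 14.46 to 14.51 at 994.6 mg/kg and 14.53 to 14.58 in control, and none was called by limma (2 had an unadjusted p under 0.05). Both groups thus carried the markers of liver.

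The 2 genes with the largest called increases, Ces2c and Abcc3, belong to the list of CAR and PXR targets, and a Cyp2b probe set was close behind. The activity of these receptors was not measured. The probe set annotated to both Cyp2b1 and Cyp2b2, the phenobarbital-type P450 enzymes of rat liver and textbook targets of CAR, read 14.15, 14.32 and 14.44 at 994.6 mg/kg, against 12.18, 11.47, 10.59, 11.92 and 12.41 in control. The groups did not overlap, the dosed arrays lay close together, and the control arrays were more widely spread, with replicate 3 lowest. The change was 2.59 ± 0.28 (6.02-fold, adjusted p = 5.49e-05), and 2.67 (adjusted p = 3.34e-04) without replicate 1. This probe set does not tell the genes apart. The probe sets of Cyp2b3 (-0.16 ± 0.06, adjusted p = 0.224), another rat Cyp2b gene, and of the male P450 Cyp3a2 (0.13 ± 0.07, adjusted p = 0.402) were not called.

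Ces2c, a carboxylesterase that hydrolyses ester drugs and can be raised through CAR, stood at 12.37, 11.23 and 11.93 at 994.6 mg/kg and 8.98, 8.9, 8.76, 8.94 and 9.04 in control, an increase of 2.92 ± 0.17 (7.57-fold, adjusted p = 1.31e-08). The 5 control values lay close together, and the lowest dosed array, replicate 2, still lay far above them. Abcc3, a basolateral pump that returns glucuronides and bile acids to the blood, stood at 9.31, 9.48 and 9.89 at 994.6 mg/kg and 6.36, 6.92, 6.61, 6.92 and 6.66 in control. It rose 7.27-fold (adjusted p = 3.00e-06), and replicate 1 was the lowest of the dosed arrays, so the increase was 2.99 (adjusted p = 2.74e-05) without it.

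Of 25 measured targets of CAR and PXR, 9 rose and 1 fell, against 3.57% of all genes called in either direction, with a median change of 0.49 where that of all genes was -0.01. Without replicate 1, 7 rose and 0 fell, against a background of 1.01%. Besides Ces2c and Abcc3, the members called both ways were Gsta3 (1.72 ± 0.2, adjusted p = 1.07e-04), an alpha class glutathione transferase, Ugt2b1 (1.25 ± 0.14, adjusted p = 5.49e-05), a glucuronosyltransferase, Alas1 (0.95 ± 0.18, adjusted p = 0.00843), which starts the synthesis of the heme that P450 enzymes need and was not called with the GAPDH covariate, Ephx1 (0.89 ± 0.11, adjusted p = 1.48e-04), the microsomal epoxide hydrolase, and Aldh1a1 (0.73 ± 0.13, adjusted p = 0.00453), a retinal dehydrogenase. Cyp3a23-3a1, the PXR-driven P450 of rat liver, stood at 14.21, 13.75 and 14.25 at 994.6 mg/kg and 13.56, 13.42, 13.13, 12.52 and 13.25 in control. Every dosed array lay above every control array, the change was 0.9 ± 0.18 (adjusted p = 0.0102), and it was 0.83 (adjusted p = 0.0801) without replicate 1. Cyp2c6v1 rose slightly (0.36 ± 0.08, adjusted p = 0.0214), a call that ended without replicate 1 (adjusted p = 0.0648). The member that fell was Aldh1b1, a mitochondrial aldehyde dehydrogenase (-1.35 ± 0.32, adjusted p = 0.0262), which was not called without replicate 1. Por, which supplies electrons to all microsomal P450 enzymes, was not called (0.34 ± 0.23, adjusted p = 0.561).

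Of 31 receptors and factors of liver identity 0 rose and 2 fell (6.45%, against 3.57% of all genes), the forkhead factor Foxa3 (-0.86 ± 0.17, adjusted p = 0.0093) and the lipid receptor Ppard (-0.52 ± 0.12, adjusted p = 0.0229), and neither was called without replicate 1. The median change of the list was -0.02.

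**Figure D2:**
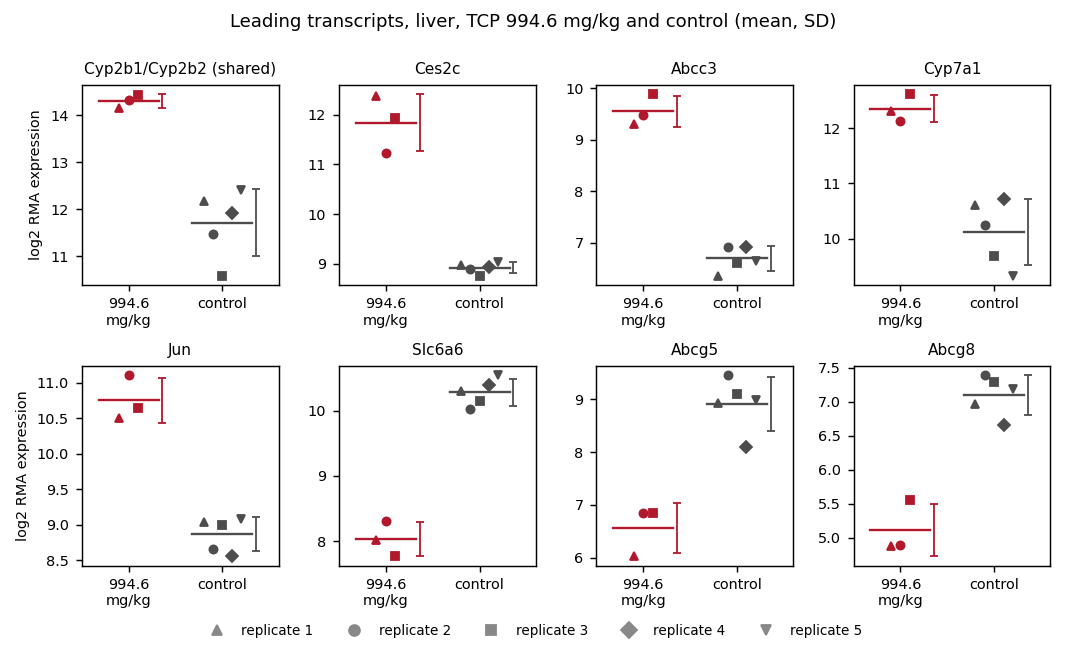
Log2 expression in each liver for 7 genes and the probe set shared by Cyp2b1 and Cyp2b2, with 994.6 mg/kg on the left and control on the right of each panel; marker shapes give the replicate number, lines the group mean and bars the SD (n = 3 and n = 5). Axes do not start at 0 and differ between panels. In every panel the 3 dosed arrays lie on one side of the 5 control arrays, which for the 7 genes was a condition of being picked.

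Some conjugating enzymes rose and others were not called. Of 20 glutathione transferases 4 rose and 0 fell (20%, against 3.57% of all genes). Gsta3 read 9.95, 9.34 and 9.9 at 994.6 mg/kg and 7.97, 7.75, 8.16, 7.55 and 8.59 in control, an increase of 3.3-fold. Gstt3, a theta class transferase, rose by 1.14 ± 0.18 (adjusted p = 0.00145), and 1.1 (adjusted p = 0.0122) without replicate 1. The alpha class Gsta4 (0.53 ± 0.11, adjusted p = 0.0114) and the theta class Gstt1 (0.42 ± 0.11, adjusted p = 0.0488) rose less and were not called without replicate 1. A probe set shared by Gsta5 and Gsta2 was at 14.23, 14.05 and 14.13 at 994.6 mg/kg, against a control mean of 13.26 ± 0.15 (SD, n = 5), and rose by 0.87 ± 0.13 (adjusted p = 8.30e-04; 0.83 without replicate 1, adjusted p = 0.00832). The call of Gstt1 ended whichever 1 of the 8 arrays was left out.

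Among 25 genes of glucuronidation, sulfation and methylation 3 rose and 2 fell (20%, against 3.57% of all genes). Ugt2b1 read 13.66, 13.67 and 13.86 at 994.6 mg/kg and 12.2, 12.32, 12.25, 12.72 and 12.89 in control, 2.38-fold higher at the dose, and its dosed arrays nearly coincided. Ugt2a1 rose by 0.69 ± 0.13 (adjusted p = 0.00718), a call that ended with the GAPDH covariate, and Nnmt, which methylates nicotinamide, by 1.01 ± 0.21 (adjusted p = 0.0124), the last not called without replicate 1. Slc13a4, a sodium-coupled sulfate carrier, read 8.04, 9.8 and 9.39 at 994.6 mg/kg and 10.84, 10.94, 10.68, 10.56 and 10.77 in control. All 3 dosed arrays lay below all controls and replicate 1 was by far the lowest, so the decrease of 1.68 ± 0.25 (adjusted p = 9.60e-04) became -1.16 (adjusted p = 4.42e-04) without it. Papss2, which makes the active sulfate donor, fell by 0.38 ± 0.1 (adjusted p = 0.0435), and was not called without replicate 1. Nat8, a cysteine conjugate N-acetyltransferase that finishes mercapturic acids, read 7.65, 8.6 and 8.41 at 994.6 mg/kg and 9.86, 9.77, 9.7, 9.56 and 9.51 in control, a decrease of 1.46 ± 0.16 (adjusted p = 5.49e-05).

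Some NRF2 targets rose, and others were far higher in replicate 1 than in any other liver. Of 27 measured, 6 rose and 1 fell (25.9%, against 3.57% of all genes). Without replicate 1, 3 rose and 0 fell, against 1.01% of all genes called. The median of the list lay 0.34, 0.11 and 0.13 from the control mean in replicates 1, 2 and 3. Nqo1, the quinone reductase, read 10.38, 9.19 and 9.57 at 994.6 mg/kg and 8.34, 8.22, 8.48, 8.51 and 8.95 in control, and rose by 1.21 ± 0.22 (adjusted p = 0.00503; 0.88 without replicate 1, adjusted p = 0.0419). Hmox1, the stress-induced heme oxygenase, read 12.46, 9.7 and 9.42 at 994.6 mg/kg and 8.83, 8.59, 9.28, 9.04 and 9.01 in control. Replicate 1 was far above all other arrays while replicates 2 and 3 lay just above the highest control, and the change of 1.58 ± 0.5 was not called (adjusted p = 0.105). Gclc, the rate-limiting enzyme of glutathione synthesis, fell by 0.73 ± 0.16 (adjusted p = 0.0196), a call that ended without replicate 1 or control replicate 5.

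Besides Ces2c, 3 esterase transcripts were called. Of 28 esterases and lipases 2 rose and 2 fell (14.3%, against 3.57% of all genes), with a median of -0.1. Nceh1, which hydrolyses cholesteryl esters in the endoplasmic reticulum, rose by 1.3 ± 0.27 (adjusted p = 0.0146), and hepatic lipase Lipc and the arylacetamide deacetylase Aadac fell by 0.45 ± 0.09 and 0.52 ± 0.13. None of these 3 calls held without replicate 1. Some transcripts of proteins that organophosphates bind or that break them down were not called, among them Bche (-0.07 ± 0.12, adjusted p = 0.866), the cholinesterase of plasma, Pnpla6 (-0.17 ± 0.08, adjusted p = 0.293), the target in delayed neuropathy, and the paraoxonase Pon1 (0.01 ± 0.06, adjusted p = 0.980). Pon1 read 13.78, 13.79 and 13.77 at 994.6 mg/kg and 13.82, 13.72, 13.82, 13.72 and 13.82 in control.

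Among transcripts of sterol and bile acid handling, those of the pump, the first synthetic enzyme and the taurine carrier changed. Abcg5 read 6.02, 6.84 and 6.84 at 994.6 mg/kg and 8.92, 9.46, 9.1, 8.09 and 8.99 in control, and fell by 2.34 ± 0.32 (adjusted p = 5.30e-04). Its partner Abcg8 read 4.88, 4.89 and 5.55 at 994.6 mg/kg and 6.97, 7.39, 7.29, 6.66 and 7.18 in control, and fell by 1.99 ± 0.23 (adjusted p = 1.11e-04). Both genes of the pump were lower in all dosed livers, and control replicate 4 was the lowest control for both. Slc6a6, which imports the taurine used to conjugate bile acids, read 8.02, 8.3 and 7.77 at 994.6 mg/kg and 10.31, 10.02, 10.16, 10.39 and 10.55 in control. Its decrease of 2.25 ± 0.13 (adjusted p = 9.35e-09) was also called without replicate 1, at -2.25 (adjusted p = 1.52e-07).

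Cyp7a1, which catalyses the first and limiting step from cholesterol to bile acids, read 12.31, 12.13 and 12.62 at 994.6 mg/kg and 10.61, 10.26, 9.7, 10.73 and 9.33 in control, 4.68-fold higher at the dose (adjusted p = 7.46e-04). Cyp8b1, which sets the share of cholic acid, read 11.88, 12.82 and 12.48 at 994.6 mg/kg and 11.77, 11.64, 11.62, 11.75 and 11.76 in control. Replicate 1 lay just above the controls and replicates 2 and 3 well above them, and the change of 0.69 ± 0.17 (adjusted p = 0.0376) was 0.94 (adjusted p = 0.00539) without replicate 1. That call was fragile, since it ended without replicate 2, without replicate 3 or without any 1 of the 5 control arrays. Nr0b2, the repressor SHP that holds bile acid synthesis down, read 6.33, 9.06 and 9.1 at 994.6 mg/kg and 8.5, 8.74, 9.0, 9.27 and 8.72 in control, so that replicate 1 was low and the others lay among the controls (-0.68 ± 0.55, adjusted p = 0.631). Of 19 genes of bile acid synthesis 2 rose and 1 fell (15.8%, against 3.57% of all genes). Fgfr4, the receptor of the gut signal that represses Cyp7a1, fell by 0.45 ± 0.1 (adjusted p = 0.019), and was not called without replicate 1 (adjusted p = 0.177).

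In all, 3 of 35 transporters rose and 8 fell (31.4%, against 3.57% of all genes), and without replicate 1, 2 rose and 3 fell, the last being Abcg5, Abcg8 and Slc6a6. In cholesterol synthesis and uptake limma called 0 of 22 members (6 had an unadjusted p under 0.05, against 2662 of all 14217 genes). The list median was -0.01, -0.01 and 0.31 in replicates 1, 2 and 3, against -0.15 to 0.09 in the control arrays. Of 36 genes of fatty acid and triglyceride synthesis 0 rose and 3 fell (8.33%, against 3.57% of all genes). These were Dgat2, which makes triglyceride from diglyceride (-0.53 ± 0.1, adjusted p = 0.00762), Agpat2, which makes phosphatidic acid (-0.43 ± 0.1, adjusted p = 0.032), and the polyunsaturated fatty acid elongase Elovl5 (-0.42 ± 0.1, adjusted p = 0.0212). Dgat2 read 11.78, 11.76 and 11.76 at 994.6 mg/kg and 12.2, 12.24, 12.25, 12.4 and 12.41 in control, and was the one of the 3 also called without replicate 1, though not with the GAPDH covariate. Of 33 PPAR-alpha targets 3 rose and 1 fell (12.1%, against 3.57% of all genes). Acot2, a mitochondrial acyl-CoA thioesterase (0.67 ± 0.15; 0.82 without replicate 1, adjusted p = 0.0173), was called both ways, though not with the GAPDH covariate or without replicate 2 or 3, while Cyp4a8 (1.5 ± 0.39, adjusted p = 0.0458), Cd36 (0.92 ± 0.24, adjusted p = 0.0477) and Acsl1 (-0.31 ± 0.08, adjusted p = 0.0399) were not called without replicate 1.

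Of 49 genes of the urea cycle and amino acid breakdown 7 fell and 1 rose (16.3%, against 3.57% of all genes), with a list median of -0.09, and without replicate 1, 1 fell and 1 rose. Hal, which opens histidine breakdown, fell by 0.83 ± 0.18 (adjusted p = 0.0194), Prodh, proline dehydrogenase, by 0.72 ± 0.13 (adjusted p = 0.00662), and Cbs, which commits homocysteine to cysteine, by 0.65 ± 0.12 (adjusted p = 0.00513). None of these 3 was called without replicate 1. Hdc, which turns histidine into histamine, was the member that rose. It read 8.94, 10.07 and 10.48 at 994.6 mg/kg and 7.24, 8.46, 6.85, 8.68 and 7.13 in control, with replicate 1 the lowest dosed array and just above the highest control. The change of 2.16 ± 0.51 (adjusted p = 0.0271) was no longer called without replicate 2 or 3 or control replicate 1, 3 or 5, or with the GAPDH covariate. In glucose metabolism 3 of 30 members rose and 3 fell (20%, against 3.57% of all genes). Glycogen synthase Gys2 rose by 0.77 ± 0.15 (adjusted p = 0.00819) and the insulin receptor Insr by 0.44 ± 0.11 (adjusted p = 0.036), while Ppp1r3b, which targets a phosphatase to glycogen, fell by 0.91 ± 0.19 (adjusted p = 0.0161) and pyruvate carboxylase Pc by 0.38 ± 0.1 (adjusted p = 0.0399), and limma called none without replicate 1 (9 had an unadjusted p under 0.05). Ak4, a mitochondrial matrix adenylate kinase, read 10.21, 10.51 and 10.29 at 994.6 mg/kg and 11.57, 11.62, 11.63, 11.19 and 11.6 in control, and fell by 1.19 ± 0.12 (adjusted p = 3.80e-05). Its other probe set was not called.

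Clock genes changed in both directions. Of 23 measured, 3 rose and 2 fell (21.7%, against 3.57% of all genes), and without replicate 1, 3 rose and 4 fell. Nr1d1, the REV-ERB alpha repressor, read 7.73, 8.17 and 8.69 at 994.6 mg/kg and 6.15, 5.66, 5.68, 5.61 and 6.27 in control, an increase of 5.0-fold (adjusted p = 0.00110). Nr1d2, its close relative, read 9.8, 9.36 and 9.64 at 994.6 mg/kg and 8.13, 8.4, 8.33, 7.94 and 8.24 in control (1.4 ± 0.14, adjusted p = 4.52e-05). Dbp, a clock output factor, read 6.88, 6.85 and 8.37 at 994.6 mg/kg and 6.03, 5.94, 5.96, 5.72 and 6.29 in control, with replicate 3 well above the other dosed arrays (1.38 ± 0.25, adjusted p = 0.00551). For these 3 genes each dosed liver lay above all controls.

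Members that fell were Cry1, a core repressor (-1.02 ± 0.19, adjusted p = 0.00601), and Npas2, a partner of BMAL1 (-0.71 ± 0.12, adjusted p = 0.00481). Cry1 read 7.24, 7.65 and 7.29 at 994.6 mg/kg and 8.5, 8.42, 8.78, 8.11 and 8.26 in control. Bmal1, the core activator, read 8.51, 8.01 and 7.46 at 994.6 mg/kg and 8.58, 8.52, 8.71, 8.43 and 8.36 in control. Replicate 1 lay among the controls and replicates 2 and 3 below them, and the change of -0.52 ± 0.16 (adjusted p = 0.0884) became -0.78 (adjusted p = 0.00884) without replicate 1. Nfil3, a repressor that opposes Dbp, had the same pattern, with 10.37, 9.9 and 9.2 at 994.6 mg/kg and 10.28, 10.27, 10.67, 10.61 and 10.78 in control (-0.7 ± 0.21, adjusted p = 0.0841; -0.97 without replicate 1, adjusted p = 0.0334). Per1 (-0.01 ± 0.18, adjusted p = 0.985) and Per2 (-0.19 ± 0.11, adjusted p = 0.456) were not called. The sources used here do not give the hour at which each liver was taken, and its part was not tested.

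Jun and Atf3, transcription factors induced by stress, rose. Jun, a subunit of AP-1, read 10.5, 11.11 and 10.64 at 994.6 mg/kg and 9.04, 8.66, 8.99, 8.55 and 9.08 in control, an increase of 1.88 ± 0.23 (adjusted p = 1.51e-04) that was 2.01 (adjusted p = 4.42e-04) without replicate 1. All 3 of its probe sets were called higher. Atf3, a stress-induced repressor, read 7.69, 7.58 and 7.11 at 994.6 mg/kg and 5.9, 5.74, 5.88, 5.46 and 5.53 in control, 3.38-fold higher at the dose (adjusted p = 5.88e-04). Of 31 measured immediate early genes (12.9% called, against 3.57% of all genes) 3 rose and 1 fell. Fos (0.03 ± 0.09, adjusted p = 0.935), Junb (0.00 ± 0.3, adjusted p = 0.998) and Egr1 (-1.11 ± 0.47, adjusted p = 0.256) were not called, and Dusp6, a phosphatase that ends ERK signalling, fell by 1.02 ± 0.22 (adjusted p = 0.0151), a call that ended without replicate 1. Without that replicate 4 of the list rose and 0 fell. Gdf15, a stress hormone, read 6.68, 8.02 and 8.22 at 994.6 mg/kg and 6.5, 6.32, 6.29, 6.24 and 6.72 in control. Replicate 1 lay among the controls and the other dosed arrays far above, so that its change of 1.23 ± 0.26 was 1.71 (adjusted p = 2.28e-04) without replicate 1, and its call ended without replicate 2 or 3. Dusp1, a phosphatase that ends JNK and p38 signalling, had the same split, with 10.32, 11.72 and 12.51 at 994.6 mg/kg and 10.8, 10.25, 10.89, 10.004 and 9.94 in control (1.14 ± 0.4, adjusted p = 0.147; 1.74 without replicate 1, adjusted p = 0.0306).

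In the response to unfolded protein and amino acid stress 8 of 40 genes rose and 0 fell (20%, against 3.57% of all genes). The list median was 0.42, 0.18 and 0.16 in replicates 1, 2 and 3. Without replicate 1, 3 rose. Ddit4, an inhibitor of mTOR, read 9.19, 8.76 and 9.09 at 994.6 mg/kg and 6.78, 7.02, 7.21, 7.64 and 6.97 in control, 3.7-fold higher at the dose (adjusted p = 0.0101), with a change of 1.8 (adjusted p = 0.0705) without replicate 1. Trib3, a pseudokinase target of ATF4, rose by 1.4 ± 0.34 (adjusted p = 0.0328), a call that ended without replicate 1. Of 19 p53 targets 4 rose and 1 fell (26.3%, against 3.57% of all genes). Gadd45a, a stress-induced growth arrest gene, read 11.21, 10.76 and 10.41 at 994.6 mg/kg and 9.4, 9.52, 9.4, 9.61 and 8.81 in control (1.45 ± 0.23, adjusted p = 0.00168), whereas Cdkn1a, the cell cycle inhibitor p21, read 9.45, 9.05 and 8.67 at 994.6 mg/kg and 10.95, 11.33, 10.92, 11.49 and 10.16 in control (-1.91 ± 0.42, adjusted p = 0.0195). The groups did not overlap for either gene, and the call of Cdkn1a ended without any 1 of the 3 dosed arrays. Its other probe set was not called. Among cell cycle and replication genes 1 of 48 rose, the flap nuclease Fen1 (0.39 ± 0.09, adjusted p = 0.0291), which was not called without replicate 1, and 1 fell, Cdc25b, an activator of cyclin-dependent kinases (-1.31 ± 0.16, adjusted p = 1.64e-04). The 4.17% of that list called lies near the 3.57% of all genes.

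Interferon-stimulated genes, which cells switch on against viruses, formed the list with the largest median change. Of 43 measured, 15 rose and 0 fell (34.9%, against 3.57% of all genes), with a median of 0.65, and 42 had a positive change. Without replicate 1, 4 rose and 0 fell, and the median was 0.54. The list median lay 0.83, 0.6 and 0.41 from the control mean in replicates 1, 2 and 3, against -0.33 to 0.31 in the control arrays, where replicate 4 was highest and replicate 2 lowest. Usp18, which shuts off the interferon receptor, read 10.32, 10.24 and 10.3 at 994.6 mg/kg and 8.6, 7.99, 8.67, 9.67 and 8.34 in control, 3.11-fold higher at the dose (adjusted p = 0.00468; 1.62 without replicate 1, adjusted p = 0.0284). Isg15, a ubiquitin-like tag, read 9.84, 9.86 and 9.75 at 994.6 mg/kg and 8.43, 7.63, 8.26, 9.11 and 8.89 in control (1.35 ± 0.25, adjusted p = 0.00640). For both, the 3 dosed arrays were close to each other and above all controls, and control replicate 4 was nearest to them. Mx1, an antiviral GTPase (1.46 ± 0.31, adjusted p = 0.0158), and Oas1a, which makes a second messenger that activates RNase L (1.39 ± 0.34, adjusted p = 0.0314), were not called without replicate 1.

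The element that the interferon-activated factor ISGF3 reads, GAAANNGAAA, was searched on both strands in the RefSeq promoter windows (build GRCr8), from 250 bases before to 50 bases after each gene start. It was found in 3.92% of 33469 windows. Of the 43 measured interferon genes 34 had a window and 21 of these held the element, 7 of 10 called genes and 14 of 24 genes not called. The list was chosen as interferon genes, so this describes the list and not the dose. Stretches of 80 bases are printed for 6 of the 7 called genes that hold it, 5′ to 3′ on the strand of the gene, with the element in capitals on whichever strand it was found, to show where it lies.

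Irf7: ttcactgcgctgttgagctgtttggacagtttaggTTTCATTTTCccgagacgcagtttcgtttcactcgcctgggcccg
Oas1a: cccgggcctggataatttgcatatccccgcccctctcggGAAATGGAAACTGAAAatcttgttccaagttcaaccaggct
Isg20: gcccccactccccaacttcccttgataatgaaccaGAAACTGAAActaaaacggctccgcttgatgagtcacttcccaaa
Ifit3: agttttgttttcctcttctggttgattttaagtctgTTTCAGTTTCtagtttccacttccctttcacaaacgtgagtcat
Ifi44l: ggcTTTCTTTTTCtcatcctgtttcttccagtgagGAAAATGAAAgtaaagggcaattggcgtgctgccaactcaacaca
Irgm: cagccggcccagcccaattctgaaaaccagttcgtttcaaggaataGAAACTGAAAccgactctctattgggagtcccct

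These stretches lie at chr1:205800048-205800127 (-) for Irf7, chr12:41330386-41330465 (+) for Oas1a, chr1:142239932-142240011 (+) for Isg20, chr1:241527246-241527325 (+) for Ifit3, chr2:243328629-243328708 (+) for Ifi44l and chr10:33742579-33742658 (-) for Irgm. Where 2 matches overlap, as in Oas1a, the capitals run over both. Irf7, the factor that amplifies interferon production, read 9.91, 10.06 and 10.06 at 994.6 mg/kg and 9.08, 8.51, 9.07, 9.69 and 9.05 in control (0.93 ± 0.24, adjusted p = 0.0414). Ifit3, which binds viral RNA complexes, read 6.36, 7.01 and 6.0 at 994.6 mg/kg and 5.38, 5.12, 5.04, 5.81 and 5.08 in control (1.17 ± 0.24, adjusted p = 0.0130). Both had the dosed arrays above all controls, and control replicate 4 was the highest control for both. Isg20, an exonuclease (0.65 ± 0.13, adjusted p = 0.00978), Ifi44l (0.98 ± 0.23, adjusted p = 0.0279) and Irgm, an immunity-related GTPase (1.22 ± 0.25, adjusted p = 0.011), also rose, and none of these 5 was called without replicate 1. Irf7, Ifit3, Isg20, Ifi44l and Irgm were named for the match in their promoters, after their values had been seen.

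Some proteasome subunits rose by small amounts. Of 37 measured, 8 rose and 0 fell (21.6%, against 3.57% of all genes), 35 had a positive change, and the list median lay 0.35, 0.17 and 0.16 from the control mean in replicates 1, 2 and 3, against -0.04 to 0.05 in the control arrays. The core particle subunits Psma1 (0.59 ± 0.13, adjusted p = 0.0151), Psma2 (0.58 ± 0.14, adjusted p = 0.0271), Psmb3 (0.56 ± 0.11, adjusted p = 0.0114) and Psma5 (0.47 ± 0.1, adjusted p = 0.0148) led. Psma1 read 11.77, 11.25 and 11.33 at 994.6 mg/kg and 11.01, 10.81, 10.91, 10.79 and 10.77 in control, so that replicate 1 was highest and the other dosed arrays still lay above all controls. Without replicate 1 limma called 0 subunits (17 had an unadjusted p under 0.05), with a list median of 0.16. The count of 17 has no count over all genes without replicate 1 beside it. The interferon-inducible activator of the proteasome, Psme1 (0.39 ± 0.08, adjusted p = 0.00884) and Psme2 (0.41 ± 0.1, adjusted p = 0.0388), and the peptide loading factor Tapbp (0.45 ± 0.09, adjusted p = 0.00843) were the 3 of 19 antigen presentation genes that rose, and none was called without replicate 1.

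Of 45 acute phase and inflammation genes 4 rose and 0 fell (8.89%, against 3.57% of all genes). Orm1, a drug-binding plasma protein, read 14.61, 13.82 and 14.02 at 994.6 mg/kg and 13.22, 13.001, 13.05, 13.07 and 12.59 in control (1.17 ± 0.16, adjusted p = 5.88e-04; 0.93 without replicate 1, adjusted p = 0.00436). Tnfaip3, the A20 brake on NF-kB, read 8.21, 8.4 and 7.62 at 994.6 mg/kg and 6.65, 6.85, 6.84, 7.25 and 7.0 in control (1.16 ± 0.17, adjusted p = 0.00103; 1.1 without replicate 1, adjusted p = 0.0104). Both were above all controls in each dosed liver. Crp (0.82 ± 0.19, adjusted p = 0.0224) and ceruloplasmin, Cp (0.25 ± 0.06, adjusted p = 0.0396), rose, and were not called without replicate 1. In the complement and coagulation list 4 of 36 members rose and 1 fell (13.9%, against 3.57% of all genes), and without replicate 1, 1 rose and 1 fell. Protein S, Pros1 (0.36 ± 0.06, adjusted p = 0.00434), and the complement protease C1s (0.42 ± 0.08, adjusted p = 0.00762), the last not called without replicate 1, rose and heparin cofactor II, Serpind1, fell (-0.35 ± 0.06, adjusted p = 0.00502). Masp2 was called higher (0.34 ± 0.08, adjusted p = 0.0209), but another probe set of the gene was called lower, so its direction is unsettled.

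Transcripts of red blood cells, which reach a liver piece with its blood, fell, and fewer such cells cannot be told apart from less RNA per cell. Of 9 measured markers 4 fell and 0 rose (44.4%, against 3.57% of all genes). Without replicate 1, 3 fell, against 1.01% of all genes called. The mean log2 level of the list was 6.48 to 7.14 at 994.6 mg/kg and 7.52 to 7.64 in control. Hbb, beta globin, read 10.66, 12.43 and 12.1 at 994.6 mg/kg and 13.18, 13.26, 13.21, 13.33 and 13.37 in control, and fell by 1.54 ± 0.25 (adjusted p = 0.00197; -1.0 without replicate 1, adjusted p = 4.26e-04). Alas2, the erythroid enzyme of heme synthesis, read 5.58, 7.1 and 6.94 at 994.6 mg/kg and 8.07, 8.0, 8.09, 8.25 and 8.46 in control (-1.63 ± 0.23, adjusted p = 6.18e-04; -1.15 without replicate 1, adjusted p = 2.28e-04). The control arrays lay close together, replicates 2 and 3 clearly below them and replicate 1 far below. Hba-a3, an alpha globin, fell by 1.51 ± 0.24 (adjusted p = 0.00215) and Ahsp, the alpha globin chaperone, by 0.53 ± 0.11 (adjusted p = 0.0166), the last not called without replicate 1. Globin signal cannot be assigned to single copies where probe sets share genes. The probe sets shared by Hbbl1 and Hbb-bs fell by 2.05 ± 0.33 and 1.82 ± 0.26, and the 3 shared by Hba-a2 and Hba-a1 by 1.43 ± 0.29, 1.25 ± 0.25 and 1.22 ± 0.25, and all 5 were also called without replicate 1. The 3 shared by Hba-a2 and Hba-a1 were not called with only the dose and control arrays, and those that fell by 1.43 and 1.22 were not called with the GAPDH covariate.

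Markers of the other cells in a liver piece were called for 1 gene. None of the 10 Kupffer cell and macrophage, 7 neutrophil, 14 T, B and NK cell, 10 sinusoidal endothelial and 13 stellate cell and fibroblast markers was called by limma, and 3 of them had an unadjusted p under 0.05. Over all 14217 genes 2662 had an unadjusted p under 0.05. The mean log2 level of the macrophage markers was 9.96 to 10.17 at 994.6 mg/kg and 9.57 to 10.09 in control, and that of the neutrophil markers 5.1 to 5.81 at 994.6 mg/kg and 5.09 to 5.46 in control. For the stellate cell markers it was 7.49 to 8.21 at 994.6 mg/kg and 7.78 to 8.15 in control. Replicate 1 was the highest of the 8 arrays for all 3 lists, and replicate 3 was the lowest for the stellate cell markers. Of 7 bile duct markers Epcam, an epithelial adhesion molecule, rose (0.69 ± 0.14, adjusted p = 0.00957) and was not called without replicate 1. The mean of that list was 6.19 to 6.53 at 994.6 mg/kg and 6.07 to 6.29 in control. The part of cell composition in the changes above was not tested.

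**Figure D3:**
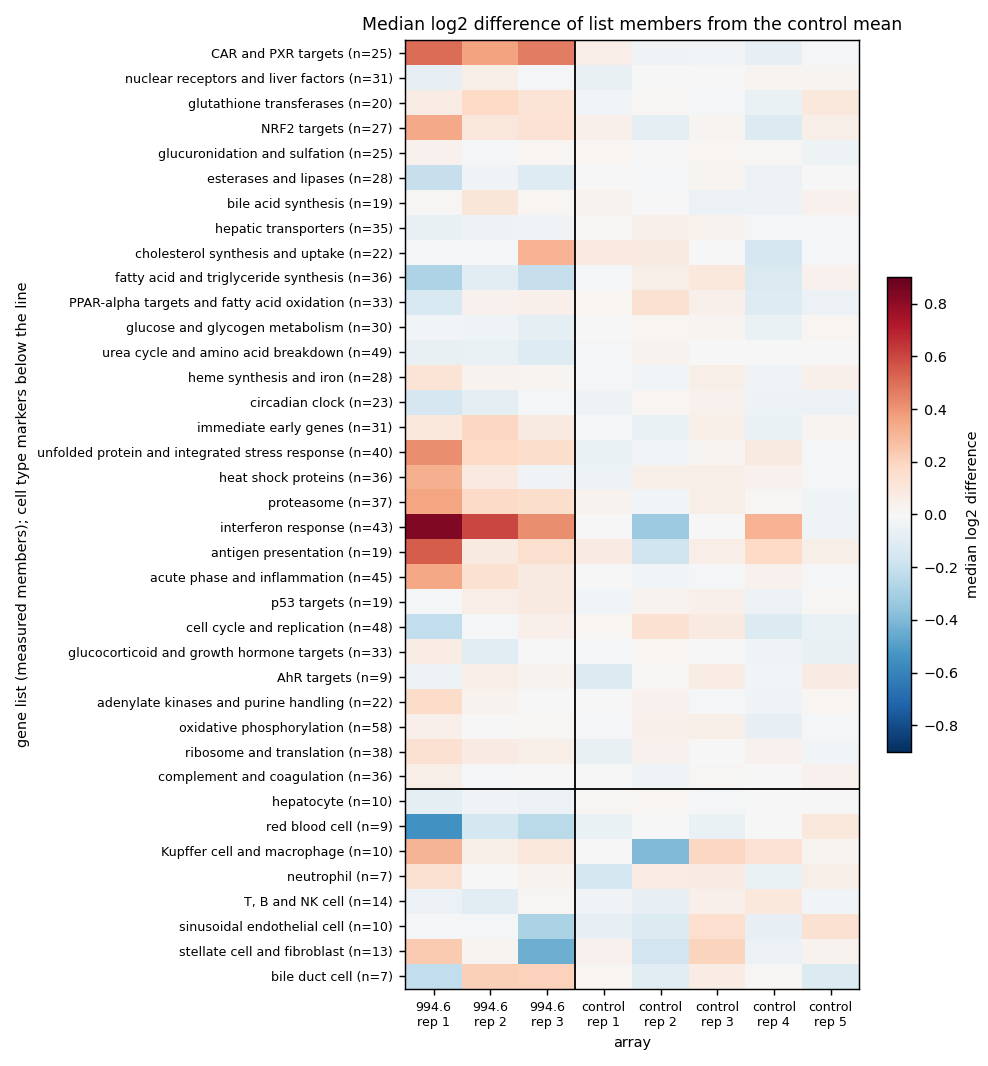
Median log2 difference of the measured members of each gene list from the control mean, in each of the 3 livers of 994.6 mg/kg (left of the vertical line) and the 5 control livers (right); red is higher and blue lower, and the markers of cell types stand below the horizontal line. The interferon list lies at 0.83, 0.6 and 0.41 in the dosed livers and at -0.33 to 0.31 in control, and several lists are reddest in replicate 1.

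Replicate 1 differed from the other dosed livers in genes of its own, listed here as a description with no test, since it is 1 liver. The largest excess was in Lcn2, an iron-binding acute phase protein, at 11.38 in replicate 1, against 6.86 and 7.3 in replicates 2 and 3 and 5.91 to 7.35 in control. Rgs16, a brake on G protein signalling, stood at 12.55 in replicate 1, against 9.08 and 8.37 in replicates 2 and 3 and 8.39 to 10.98 in control, and Gpx2, a glutathione peroxidase driven by NRF2, at 8.33 in replicate 1, against 4.91 and 5.59 in replicates 2 and 3 and 4.74 to 6.46 in control. The neutrophil-attracting chemokine Cxcl1 stood at 12.7 in replicate 1, against 10.73 and 7.78 in replicates 2 and 3 and 10.78 to 12.53 in control, and the acute phase protein A2m at 11.92 in replicate 1, against 9.3 and 8.42 in replicates 2 and 3 and 9.66 to 10.99 in control. For all 5 genes replicate 1 lay above every control. For A2m and Cxcl1 replicates 2 and 3 lay below every control.

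Genes low in replicate 1 included Nr0b2, given above, and Ccnd1, cyclin D1, at 8.17 in replicate 1, against 10.38 and 10.33 in replicates 2 and 3 and 8.92 to 10.23 in control. Nrep stood at 9.25 in replicate 1, against 11.42 and 11.61 in replicates 2 and 3 and 11.69 to 12.44 in control, and Paqr7, a membrane progestin receptor, at 7.85 in replicate 1, against 10.18 and 10.09 in replicates 2 and 3 and 9.98 to 10.55 in control. For these 3 genes replicate 1 lay below all other arrays of both groups. Cdh17, a cadherin best known from intestine, stood at 7.33 in replicate 1, against 11.01 and 9.77 in replicates 2 and 3 and 7.16 to 10.8 in control, and Pbsn, the androgen-regulated probasin, at 7.21 in replicate 1, against 9.95 and 8.94 in replicates 2 and 3 and 7.99 to 10.76 in control. Both of these also varied widely among the control livers, and control replicate 3 was the lowest control for each. None of the genes named for the deviation of replicate 1 was called in the comparison with control.

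**Figure D4:**
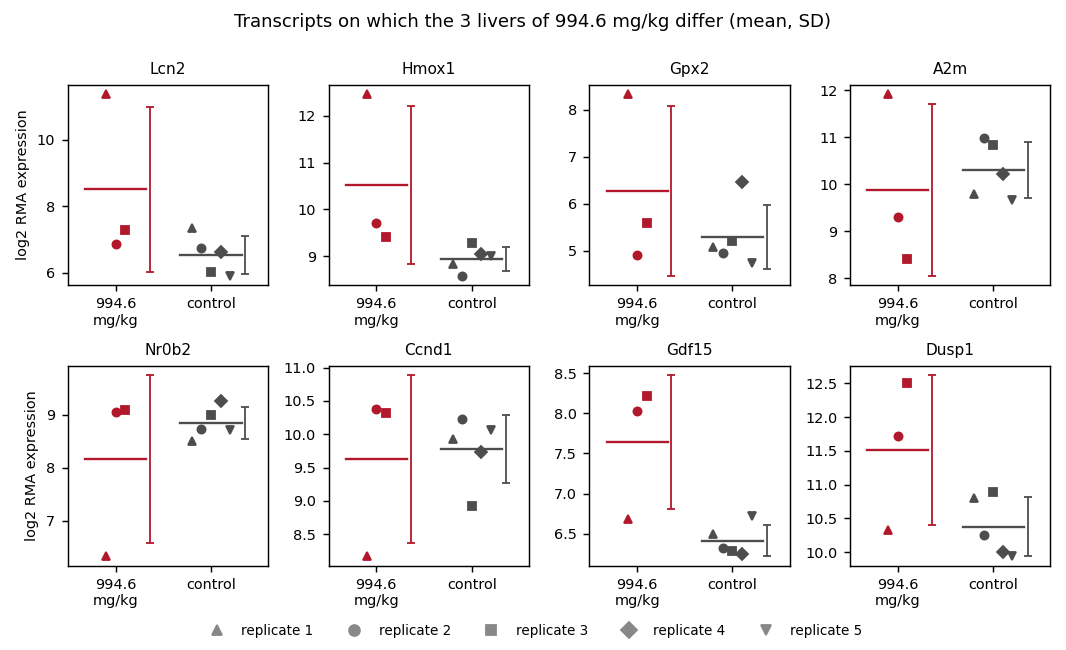
Log2 expression in each liver for 8 genes on which the dosed livers differ among themselves, with 994.6 mg/kg on the left and control on the right of each panel; marker shapes give the replicate number, lines the mean and bars the SD (n = 3 and n = 5). Axes do not start at 0. Replicate 1 (triangles pointing up) is high for Lcn2, Hmox1, Gpx2 and A2m, low for Nr0b2 and Ccnd1, and at the level of the controls for Gdf15 and Dusp1, where replicates 2 and 3 are high.

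Of the probe sets annotated to several genes 32 of 436 were called (7.34%, against 2.60% of all probe sets), 23 higher (5.28%) and 9 lower (2.06%). Several of them read the same genes, so they are not independent. Without replicate 1, 12 were called (2.75%). Besides those of Cyp2b1 and Cyp2b2, the globins and the Gsta genes, one shared by the complement C4 genes C4b and C4a read 13.54, 13.71 and 13.73 at 994.6 mg/kg, against a control mean of 12.86 ± 0.2 (SD, n = 5), and rose by 0.8 ± 0.13 (adjusted p = 0.00292; 0.86 without replicate 1, adjusted p = 0.00839). One shared by the antiviral synthetases Oas1g and Oas1i rose by 0.61 ± 0.11 (adjusted p = 0.00573), and one shared by the low-affinity antibody receptor Fcgr2a and Fcgr2al1 fell by 0.65 ± 0.15 (adjusted p = 0.0242), and both were also called without replicate 1. The Fcgr2a call ended without dosed array 2 or 3 or control array 3 or 4, and likewise when the GAPDH covariate was fitted. The C4 and Oas1 probe sets and that of Fcgr2a were named after their values had been seen.

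Leaving out each of the 8 arrays in turn, 113 of the 508 called genes kept their call every time, 65 higher and 48 lower. Snx10, an endosomal sorting nexin, read 9.52, 8.46 and 8.08 at 994.6 mg/kg and 6.33, 5.8, 5.43, 7.04 and 4.67 in control, so that the control livers spread widely and the dosed livers still lay above them (2.84 ± 0.43, adjusted p = 0.00135). App, the amyloid precursor protein (1.4 ± 0.15, adjusted p = 5.49e-05), and Cers6, a ceramide synthase (1.4 ± 0.19, adjusted p = 5.01e-04), rose. App read 12.68, 12.39 and 12.44 at 994.6 mg/kg and 10.89, 11.23, 11.41, 10.92 and 11.06 in control, and all 3 of its probe sets were called higher. Mme, neprilysin, a membrane peptidase, read 5.43, 5.51 and 5.69 at 994.6 mg/kg and 8.05, 7.48, 7.12, 6.57 and 6.41 in control (-1.58 ± 0.27, adjusted p = 0.00407). Syne1, a nuclear envelope spectrin (-1.18 ± 0.15, adjusted p = 1.90e-04), and Ccdc141 (-1.25 ± 0.15, adjusted p = 1.85e-04) fell. Syne1 has 4 probe sets, of which 1 other was called lower, and the mean over them changed by -0.57. Lgalsl (-0.88 ± 0.16, adjusted p = 0.00508) fell as well, and its change was -1.07 (adjusted p = 0.00242) without replicate 1.

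Other called changes ended when some array was left out. Wfdc21, a secreted whey acidic protein family member, read 12.45, 10.53 and 10.31 at 994.6 mg/kg and 9.68, 8.86, 9.0, 9.51 and 9.47 in control, so that replicate 1 carried most of the increase of 1.79 ± 0.42 (adjusted p = 0.0271; 1.12 without replicate 1, adjusted p = 0.236). Tent5c, a poly(A) polymerase, fell by 1.47 ± 0.28 (adjusted p = 0.00756), and Stac3, an adaptor of muscle calcium channels, by 1.58 ± 0.35 (adjusted p = 0.0181), and neither was called without replicate 1. Trak1, a mitochondrial transport adaptor, was called at -0.78 ± 0.2 (adjusted p = 0.0399) and at -1.06 (adjusted p = 0.00839) without replicate 1, and its call ended without replicate 2 or 3 or any 1 of control replicates 1 to 4, and with the GAPDH covariate.

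The next lower dose, 497.3 mg/kg (n = 3), shares no arrays with this dose, and limma called 6 probe sets (0.0193%, with 0.0161% higher and 0.00322% lower) and 3 genes between them (0.0211%, with 0.0141% higher and 0.00703% lower), with 1087 genes at an unadjusted p under 0.05. Jun read 10.5, 11.11 and 10.64 at 994.6 mg/kg and 8.54, 8.63 and 8.69 at 497.3 mg/kg, a difference of 2.13 ± 0.25 (adjusted p = 0.00256). Nr1d2 was higher at 994.6 mg/kg by 1.05 ± 0.16 (adjusted p = 0.0246), with 8.75, 8.79 and 8.14 at 497.3 mg/kg. Ak4 was lower by 0.83 ± 0.13 (adjusted p = 0.0283), with 11.37, 11.06 and 11.09 at 497.3 mg/kg. Without replicate 2 or 3 of 994.6 mg/kg the count was 12 or 1, and without replicate 1 it was 4.

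Mean levels over the doses from 62.3 to 994.6 mg/kg place these changes on the dose scale. With a control mean of 8.92, Ces2c averaged 9.7, 9.8, 10.53, 10.997 and 11.84 at 62.3, 124.5, 248.6, 497.3 and 994.6 mg/kg (n = 3 each). Abcc3, with a control mean of 6.7, averaged 7.53, 7.56, 8.72, 9.16 and 9.56 at the same doses, and Cyp7a1, with a control mean of 10.13, 10.8, 11.29, 11.46, 11.68 and 12.35. These 3 means were higher at each dose than at the dose before it. Jun, with a control mean of 8.87, averaged 8.61, 8.68, 8.75, 8.62 and 10.75, so its mean was above the control mean at 994.6 mg/kg only. Usp18, with a control mean of 8.65, averaged 8.96, 9.0, 8.77, 9.29 and 10.29.

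Further lists are read against the 3.57% of all genes called. None of 58 oxidative phosphorylation subunits (median 0.03) or 38 ribosome and translation genes (median 0.09) was called by limma, and 8 and 8 of them had an unadjusted p under 0.05. For all 14217 genes that count was 2662. Of 36 heat shock proteins and chaperones 1 rose (2.78%), the mitochondrial Dnaja3 (0.43 ± 0.1, adjusted p = 0.0217), which was not called without replicate 1, and 0 fell. Among 9 targets of the dioxin receptor AhR 1 rose (11.1%), Nqo1, and Cyp1a1, the defining target, read 7.39, 6.23 and 7.22 at 994.6 mg/kg and 6.17, 6.05, 5.82, 6.01 and 6.13 in control (0.91 ± 0.54, adjusted p = 0.470). All 3 dosed arrays lay above the controls for Cyp1a1, with replicate 2 only just above, and the change was not called. Among 33 glucocorticoid and growth hormone targets 0 rose and 2 fell (6.06%), the growth factor Igf1 (-0.3 ± 0.08, adjusted p = 0.0386) and its carrier Igfals (-0.68 ± 0.18, adjusted p = 0.0487), whose calls ended whichever 1 of the 8 arrays was left out. In heme and iron handling 2 of 28 genes rose and 1 fell (10.7%). Besides Alas1, the transferrin receptor Tfrc fell by 0.84 ± 0.2 (adjusted p = 0.0292) and the BMP target Id1 rose by 0.49 ± 0.13 (adjusted p = 0.0440), neither called without replicate 1.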

How the data were processed

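The deposited values are log2 expression values of 1-colour Affymetrix arrays, and the submitters' processing notes name RMA as the tool of the authors. RMA corrects background, normalizes quantiles and summarizes probes into probe sets. Its version, and which arrays were normalized together, are not given in the sources used here. Values ran from 2.74 to 15.4, with array medians of 6.31 to 6.41, so changes are relative to the typical gene. Precision is limited by how many arrays there are. Labels assign separate rats, so the spread includes differences between animals.

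Of 31099 probe sets 57 array controls were left out. Of the rest 20826 had 1 gene symbol in the platform annotation, 436 several and 9780 are unnamed here. Symbols were updated by gene identifier for 20758 and by accession for 2, and 66 were kept. All 20 arrays entered a group-means model in limma 3.58.1 (R 4.3.3, 14 residual and 4.92 prior degrees of freedom), with no filter on low values, and the fit was tested on simulated data. RNA quality was compared by exact permutation. Alternatives left out each of the 8 dose and control arrays in turn or changed the normalization, variance prior, array weights, covariates or probe sets. Single arrays of the lower doses were not left out.

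The arrays, the 38 gene lists (1025 of 1204 entries measured) and the rule for named genes were chosen with earlier results of these data known. Named were up to 12 genes each way, those called at the greatest size whose dosed arrays lay beyond all controls, up to 4 called members of each list, up to 6 called probe sets of several genes, up to 6 further genes per direction called without replicate 1, up to 6 per direction by the deviation of replicate 1, and 7 genes whether called or not, in all 118 genes. Further genes are list members or, where said, were named after their values were seen. Same-numbered arrays of dose and control did not deviate together (correlations -0.17 to -0.13), so the numbers were not taken as pairs. The lower doses did not enter that check. A fit with the replicate number as a block, given below, called 264 genes, against 182 on the same arrays without it. Whether same-numbered arrays share variation across the doses was not tested. Promoters came from RefSeq (GRCr8).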

Additional observations from a re-analysis of the deposited data

Results flagged for a closer look

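Among the 5 control livers, 5 of 118 named genes had 1 array whose gap to the nearest other exceeded 0.71 of the group's range (Dixon's 95% critical value), about as many as the 6 that chance gives at 1 in 20. Gadd45a, the growth arrest gene, was lowest in control replicate 5 at 8.81, with the other controls at 9.4 to 9.61. Ak4, the mitochondrial adenylate kinase, was lowest in control replicate 4 at 11.19, with the other controls at 11.57 to 11.63. Ahsp, the globin chaperone, was highest in control replicate 2 at 6.73, with the other controls at 6.5 to 6.53. Gpx2, the glutathione peroxidase, was highest in control replicate 4 at 6.46, with the other controls at 4.74 to 5.21. Cdh17, the cadherin, was lowest in control replicate 3 at 7.16, with the other controls at 9.91 to 10.8.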

How the results depend on the processing

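All 508 called genes kept their sign in every setting that refitted the same probe sets (481 of 481 where dimmer probe sets were left out). Averaging each gene over its probe sets was compared for the 118 named genes only, and reversed 1 of them, Masp2, to -0.0374. New quantile normalization, median centring, other variance priors, no dimmer probe sets, 1 probe set per gene, no probe sets of several genes, or only dose and control arrays gave 363 to 724 genes. Genes called numbered 143 to 494 and probe sets 216 to 773 when 1 of the 8 arrays was left out, against 508 and 807 with all. The lowest counts came without replicate 1 of the dose, and without control replicate 1 or 5 there were 318 and 305 genes (511 and 490 probe sets). Array weights gave 2269 genes and 4224 probe sets, with a weight of 6.44 for replicate 2 of the dose and 0.366 for replicate 1. With the GAPDH difference as a covariate 314 genes and 466 probe sets were called, 234 of the genes shared. At least 1.5-fold changes numbered 243 genes and 391 probe sets. The replicate block, fitted without control replicates 4 and 5, gave 264 genes and 415 probe sets, against 182 and 274 on the same arrays without the block (added after seeing the data). With only dose and control arrays and without replicate 1, also added later, 222 genes and 353 probe sets were called, against 143 and 216 when all groups shared the spread. Genes called against 497.3 mg/kg numbered 1 to 12 when a dosed array was left out. Without replicate 1 the GAPDH and beta-actin differences were -0.601 and -0.511 (exact permutation p = 0.0952 each, the smallest that 2 arrays against 5 allow). Of the 101 named genes called, 60 lost the call when some array was left out. The cause of these shifts was not tested.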
